A study of Mus musculus with 2 samples.

Results

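A small set of macrophages from MC38 tumors, the *Ereg* *Areg* *Il1a* macrophages, was chosen by measured values. A cell entered the set when it had a UMI (a counted molecule) of at least 3 of the 5 genes *Ereg*, *Areg*, *Il1a*, *Il23a* and *Dcstamp*, at least 5 UMIs of *Lyz2*, no UMI of *Cd3d*, *Cd3e* or *Cd3g*, and UMIs of fewer than 3 of the 6 genes *Serpinb2*, *Il6*, *Ptges*, *Procr*, *Nos2* and *F3*. These 15 genes are called the rule genes, the first 5 the gate genes, the last 6 the second set, and the chosen cells the gate cells. Of 18960 cells that could be assigned to a group, 9911 met the limits on genes and mitochondrial UMIs, and 212 of those were gate cells. The name gives only part of the rule, and *Ereg* had a UMI in 56 of the gate cells (26.4%).

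The study asked how telmisartan, an angiotensin receptor blocker given against high blood pressure, changes the immune cells of a mouse colorectal tumor. Single-cell RNA sequencing was done on CD45+ cells on the BD Rhapsody system, which pairs each cell with a barcoded bead in a microwell. Both groups were in the same capture and were told apart by Sample Tags, oligonucleotides carried by antibodies. All animals were female C57BL/6 mice of 6 to 8 weeks carrying subcutaneous tumors of MC38, a C57BL/6 colon cancer line. The control group received vehicle and the telmisartan group 5 mg/kg telmisartan, by gavage into the stomach every day from implantation, and tumors were harvested on day 13. Cells of 5 mice were pooled in each group, so each group is 1 pool without replicates, and mice cannot be told apart within it. No test between groups was possible. All intervals are 95% intervals for counting error alone, exact Clopper-Pearson for shares, exact Poisson for levels and exact conditional binomial for log2 ratios.

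Epiregulin (*Ereg*) and amphiregulin (*Areg*) are ligands of the EGF receptor family. They are made as membrane proteins, are shed by proteases such as ADAM17, and act on epithelial, stromal and immune cells in wound repair and in tumors. Interleukin-1α (*Il1a*) is an alarmin that signals through the IL-1 receptor, *Il23a* encodes the p19 subunit that joins p40 to form IL-23, and *Dcstamp* encodes a membrane protein needed for the fusion of osteoclasts and giant cells. In macrophages, the genes for these ligands and cytokines are known to be induced by microbial products, prostaglandin E2 and NF-κB, AP-1 or CREB.

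The gate cells numbered 125 in the control pool and 87 in the telmisartan pool. They held 1664958 and 938249 UMIs, with medians of 12906 and 9842 UMIs and 3236 and 2882 genes per cell. They were compared with the other *Lyz2*-high cells, those that met every limit with fewer than 3 gate genes (4056 and 3638 cells), whose median depth was lower, at 9630.5 and 7288 UMIs. Gate cells made up 2.46% (2.05 to 2.93%) of control cells within the limits and 1.80% (1.44 to 2.22%) of telmisartan cells. With every cell thinned to 3000 UMIs, which left out 636 control and 943 telmisartan cells, 53 of 4442 (1.19%, 0.895 to 1.56%) and 37 of 3890 (0.951%, 0.671 to 1.31%) met the gate. The pools are not compared by these shares, since both depth and the levels of the gate genes differed between them.

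The gate genes did not contribute alike to the choice of cells. *Il1a* had a UMI in all 125 control and in 85 of 87 telmisartan gate cells, with medians of 12 and 6 UMIs per cell. *Areg* was found in 104 (83.2%) and 73 (83.9%) and *Dcstamp* in 98 (78.4%) and 65 (74.7%). The remaining pair was rarer. *Ereg* had a UMI in 41 control cells (32.8%, 24.7 to 41.8%) and 15 telmisartan cells (17.2%, 9.98 to 26.8%), and *Il23a* in 27 (21.6%, 14.7 to 29.8%) and 30 (34.5%, 24.6 to 45.4%).

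A single combination of gate genes was the most frequent. *Areg*, *Il1a* and *Dcstamp* without the other gate genes were found in 105 of the 212 cells (49.5%), 61 control and 44 telmisartan. *Il1a*, *Il23a* and *Dcstamp* marked 24 cells (14 and 10), *Ereg*, *Areg* and *Il1a* marked 23 (17 and 6), and *Areg*, *Il1a* and *Il23a* marked 21 (7 and 14). *Ereg*, *Areg* and *Il1a* thus lay more in the control pool and *Areg*, *Il1a* and *Il23a* more in the telmisartan pool. A further 15 cells carried *Ereg*, *Areg*, *Il1a* and *Dcstamp* (13 and 2), and 1 control cell carried all 5 genes. The gate itself limits how its genes can combine, and whether any pair met less often than expected was not tested.

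Levels are given as CPM, UMIs per 1000000 summed UMIs of a set of cells. *Ereg* stood at 176 CPM in control and 59.7 in telmisartan gate cells, *Areg* at 454 and 402, *Il1a* at 1516 and 862, *Il23a* at 103 and 112, and *Dcstamp* at 523 and 328. A few cells held much of some of these sums. In the control pool 35.1% of the *Il23a* UMIs came from 1 cell, which held 60 of 171, and in the telmisartan pool 19.6% of the *Ereg* UMIs came from 1 cell, which held 11 of 56. For *Areg*, *Il1a* and *Dcstamp*, the highest cell of either pool held at most 7.96% of the sum. These levels chose the cells and are a description.

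Free RNA in the capture, or another cell captured with it (a doublet), can give a cell UMIs of genes that it does not express. T cells, taken as the 84 control and 112 telmisartan cells with at least 3 *Cd3d*, *Cd3e* and *Cd3g* UMIs, had median depths of 7418 and 4599 UMIs, shallower than the gate cells. *Il1a* had a UMI in 29.8% and 25% of them, and in 47.1% and 45.3% of the other *Lyz2*-high cells. A single *Il1a* UMI thus says little, and 27 of the 212 gate cells had only 1. *Dcstamp* was found in 9.52% and 5.36% of T cells, *Il23a* in 2.38% and 1.79%, and *Ereg* in 2 of 84 and 0 of 112, which allows up to 3.24%. *Areg* had a UMI in 16.7% and 9.82% of T cells, which are themselves known to make amphiregulin, but in only 5.20% and 5.80% of the other *Lyz2*-high cells. After thinning to 3000 UMIs, *Areg* was found in 54.1% and 57.8% of gate cells against 10.8% and 6.41% of T cells, and *Ereg* in 19.7% and 9.64% against 1.54% and 0%. The gate cells were chosen for UMIs of these genes before thinning, so their higher shares are built in by the rule. The UMIs in T cells do not separate free RNA from doublets, and the part of either was not tested.

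Most gate cells lay at the threshold of the rule, since 106 control and 80 telmisartan cells had 3 gate genes and no more. All 3 of these genes were at 1 UMI in 2 control and 2 telmisartan cells, and 2 control cells had 5 to 9 UMIs of *Lyz2*. Of the second set, 2 genes, the most that the rule allows, were present in 37 control and 20 telmisartan gate cells. *Nos2* was the gene of that set found most often in gate cells, in 71 of 125 and 30 of 87. Just outside the gate lay 605 control and 459 telmisartan cells with 2 gate genes, whose *Il1a* stood at 981 and 811 CPM and *Areg* at 87.7 and 118 CPM. Just inside it, the cells with 3 gate genes had *Il1a* at 1295 and 845 CPM and *Areg* at 364 and 401.

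The cells carried the markers of macrophages. All 10 macrophage markers outside the rule were detected in both pools, and at least 3 of them had a UMI in 98.4% of control and 98.9% of telmisartan gate cells. Their summed level was 3456 and 4108 CPM, below the 5562 and 5548 CPM of the other *Lyz2*-high cells, with *C1qb*, a subunit of complement C1q, the most abundant. All 5 monocyte markers were detected, at a summed 786 and 774 CPM against 877 and 918, led by the chemokine receptor gene *Ccr2*.

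Markers of other cells were low or rested on a gene that macrophages also use. Dendritic cell markers numbered 7 and 5 of 10, at 87.7 and 86.3 CPM against 76.4 and 57.6 in the other *Lyz2*-high cells, with *Ccl22* the most abundant (42.6 and 62.9 against 37.2 and 16.5) and *Xcr1*, *Fscn1* and *Siglech* at 0 in both pools. Neutrophil markers numbered 6 and 4 of 8, at 94.3 and 76.7 CPM against 84.2 and 90.3, with *Mmp8* the most abundant and *Ly6g* and *Camp* at 0. NK and innate lymphoid markers numbered 4 and 3 of 6, at 223 and 258 CPM against 153 and 154, of which *Il7r* made up 197 and 231, and *Ncr1* was at 0. At least 2 dendritic cell markers were found in 9.60% and 4.60% of gate cells against 3.62% and 2.69% of the others, at least 2 neutrophil markers in 8% and 1.15% against 4.14% and 3.88%, with the pools in opposite directions, and at least 2 NK and innate lymphoid markers in 14.4% and 13.8% against 6.51% and 5.47%. Mast cell and basophil markers numbered 2 and 1 of 8, at 9.61 and 17.1 CPM against 3.93 and 6.08, nearly all *Hdc*, with *Mcpt8*, *Fcer1a* and *Ms4a2* at 0. Summed T cell markers outside the rule stood at 6.01 and 3.20 CPM (4 and 2 of 4, led by *Trbc2* and *Skap1*), B cell markers at 1.80 and 0 (1 and 0 of 4), tumor and epithelial markers at 2.40 and 1.07 (1 of 6, *Epcam*, with *Krt8*, *Krt18* and *Krt19* at 0), fibroblast markers at 6.01 and 8.53 (3 of 6, led by *Col1a1* and *Col1a2*, with *Dcn* and *Pdgfra* at 0), endothelial markers at 13.8 and 12.8 (4 and 3 of 5, led by *Pecam1*) and red cell markers at 5.41 and 0 (3 and 0 of 4). The part of such cells or of their RNA in the values below, such as those of MHC class II genes and *Ccl17*, was not tested.

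Cells were also followed along the number of gate genes, from 0 to 5, over all *Lyz2*-high cells with fewer than 3 genes of the second set. The steps held 1708, 1743, 605, 106, 18 and 1 control cells and 1641, 1538, 459, 80, 7 and 0 telmisartan cells, so the last steps are thin. Median depth rose along the steps as well, from 8367.5 to 12905 UMIs at 3 gate genes in the control pool and from 6453 to 10057.5 in the telmisartan pool, and its part was not tested. *C1qa* fell from 616 CPM in control cells without a gate gene to 452, 294 and 179 at 1, 2 and 3 gate genes, and from 525 to 397, 292 and 251 in telmisartan cells. *Apoe*, which encodes a lipid carrier, went from 1706 to 1040, 523 and 436 and from 3259 to 2284, 1322 and 986. The reverse order was seen for *Il1b* and *Hilpda*. *Il1b*, for IL-1β, rose from 1591 to 2879, 3828 and 4695 CPM in control cells and from 2371 to 3598, 4680 and 4754 in telmisartan cells. *Hilpda*, a hypoxia-induced inhibitor of fat breakdown, rose from 334 to 546, 760 and 1286 and from 433 to 631, 820 and 950. Most of each change was thus already present below the threshold of 3 gate genes, except for *Hilpda* in the control pool. The proliferation gene *Mki67* had no such order in common, at 150, 154, 121 and 97.6 CPM in control cells and 138, 173, 195 and 217 in telmisartan cells.

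**Figure D1:**
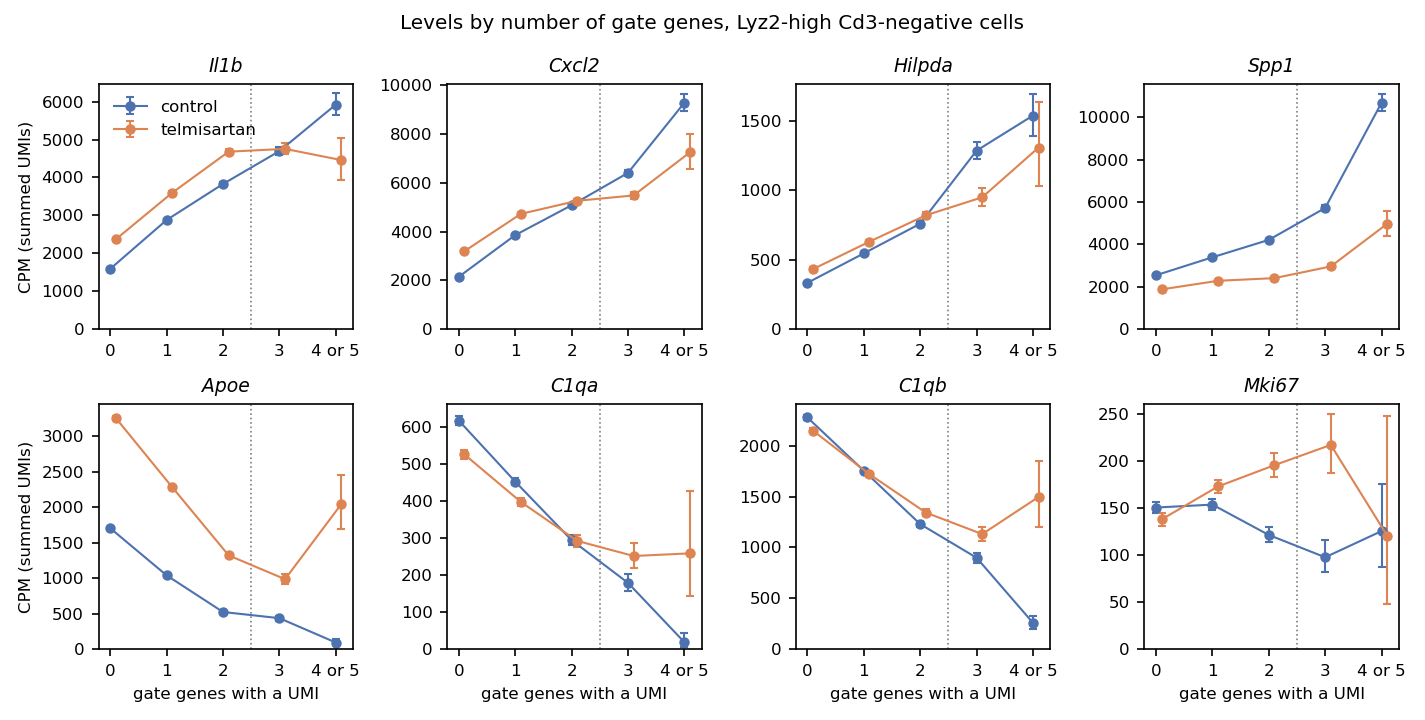
Level in CPM of 8 genes (vertical axes, from 0) by the number of gate genes with a UMI (horizontal axes) in *Lyz2*-high, *Cd3*-negative cells of the control and telmisartan pools, with exact Poisson 95% intervals; the dotted line marks the gate. *Il1b*, *Cxcl2*, *Hilpda* and *Spp1* rise and *Apoe*, *C1qa* and *C1qb* fall over the steps from 0 to 3, and the last step holds 19 control and 7 telmisartan cells.

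Gate cells were set against the other *Lyz2*-high cells within each pool, leaving out the rule genes. Of 11181 genes with at least 100 UMIs, 36 (0.322%) were at least 1 log2 unit higher in both pools and 187 (1.67%) at least 1 lower. Nothing is read from these shares, because the gate was set on the same cells. Over all genes tested the median log2 ratio was -0.18 in the control and -0.11 in the telmisartan pool. Of these genes, 69.0% and 61.5% lay below 0 and 31.0% and 38.5% above. Counts of list genes below 0 are thus partly those of all genes. The share of all genes on the same side in both pools is not given here. Scaling by TMM factors moved these medians to -0.02 in each pool, with 53 genes higher and 131 lower.

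Among the 15 genes with the highest mean ratios at 200 or more UMIs, a few rested on many cells. *Tnfrsf9*, which encodes the costimulatory receptor 4-1BB, had 465 CPM in control and 214 in telmisartan gate cells against 140 and 74.3 in the other cells, log2 ratios of 1.74 (1.63 to 1.84) and 1.53 (1.31 to 1.74). *Cxcl1*, a neutrophil-attracting chemokine, had 816 and 1791 CPM against 324 and 751, ratios of 1.33 (1.25 to 1.41) and 1.25 (1.18 to 1.32). *Tnf*, for the cytokine TNF, had 253 and 305 CPM against 93.4 and 144, ratios of 1.44 (1.29 to 1.58) and 1.08 (0.90 to 1.26). Each of these genes had a UMI in at least 50.6% of the gate cells of either pool. *Flrt3*, for a membrane adhesion protein, had 110 and 167 CPM against 32.7 and 79.0 (1.75 and 1.08). *Mir155hg*, the host gene of microRNA-155, had 25.2 and 63.9 CPM against 10 and 17.7 (1.33 and 1.85).

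Some of the other high ratios came from few cells. *Car4*, for a carbonic anhydrase, had the highest mean ratio of the 15 (2.48 and 2.23), but 96.3% of its control UMIs lay in 1 cell, and without each pool's highest cell its mean ratio was -0.44. *Ear2*, for a ribonuclease with close relatives in the genome whose reads may be shared, had 50% and 59.3% of its UMIs in 1 cell of each pool, *Hdc*, for histidine decarboxylase, 73.3% in the control pool, and *Slpi*, for a protease inhibitor, 45.2% in the telmisartan pool. Without each pool's highest cell the mean ratios of *Ear2*, *Hdc* and *Slpi* were 0.80, 0.16 and 0.78. *Slc9a4*, for a sodium-proton exchanger (21.0 and 21.3 CPM against 4.08 and 4.53), *Fam43a*, *Gm36723*, *Akap5*, *Srgap3* and *Dpys* made up the rest, none above 37.8 CPM, and their mean ratios stayed above 1 without each pool's highest cell (1.90, 1.52, 1.34, 1.05, 1.06 and 1.07). With 2 gate genes required *Gm36723* was at 0.49, while the others of these stayed above 1. After thinning to 3000 UMIs *Dpys* was at 0.62, while *Slc9a4*, *Fam43a*, *Gm36723* and *Srgap3* stayed above 1.

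At the other end lay interferon-induced genes and genes at very low counts. *Iigp1*, an interferon-induced GTPase, had 12.6 and 8.53 CPM in gate cells against 105 and 79.4 (-3.06, -3.76 to -2.45, and -3.22, -4.43 to -2.24). *Ccl8*, a monocyte-attracting chemokine, had 9.61 and 4.26 CPM against 56.4 and 33.3 (-2.55 and -2.97). *Serpina3g* (mean ratio -0.11 with 2 gate genes), a protease inhibitor, whose reads may be shared with its near-identical relatives (as for *Ctla2a*), had 16.8 and 1.07 CPM against 42.7 and 17.9 (-1.34 and -4.07). *Ifit3* and *Oas2*, further interferon-induced genes, had 1 UMI each in the control gate cells and 8 and 9 in the telmisartan ones. Their mean ratios of -2.82 and -2.78 were only -0.58 and -0.76 with 2 gate genes, and -0.42 and -1.97 after thinning. *Inpp4b*, *Col14a1*, *Cadm1*, *Ctla2a* and *Ms4a14* completed the 10 lowest, with 1 to 10 UMIs in either pool and intervals several log2 units wide.

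**Figure D2:**
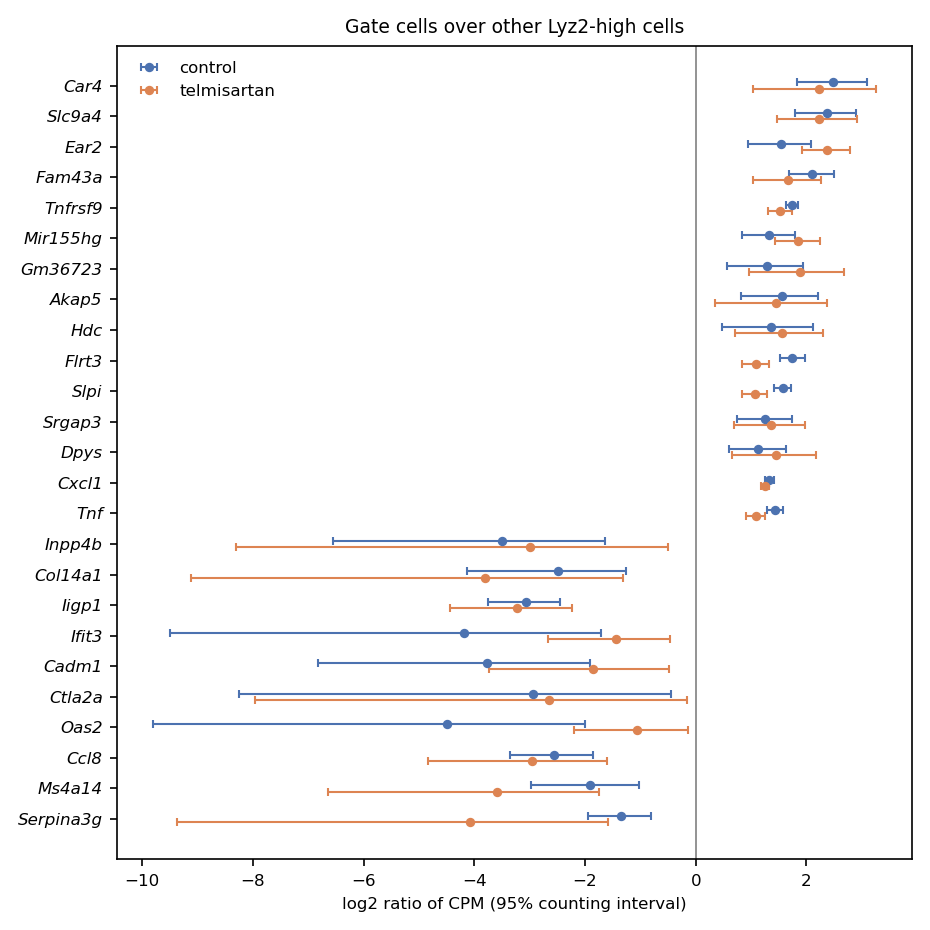
Log2 ratio of the level in gate cells to that in the other *Lyz2*-high cells (horizontal axis, 0 = equal) for the 15 highest and 10 lowest genes by the naming rule, in the control and telmisartan pools, with exact conditional binomial 95% intervals. *Tnfrsf9*, *Cxcl1* and *Tnf* have narrow intervals, and most of the lowest genes have wide ones.

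The lists of NF-κB genes and neutrophil-attracting chemokines had medians above 0 in the gate cells of both pools. Of 17 NF-κB targets and inhibitors, 12 lay above 0 in both pools and 1 below, with medians of 0.52 and 0.38, and none was past 1 log2 unit in both. Of all genes tested, 31.0% lay above 0 in the control and 38.5% in the telmisartan pool. *Nfkbia*, which encodes the inhibitor that holds NF-κB in the cytoplasm, had 1885 and 2206 CPM in gate cells against 957 and 1646 (0.98 and 0.42). *Tnip3*, for a binding partner of the ubiquitin-editing enzyme A20, had 269 and 293 CPM against 129 and 163 (1.06 and 0.85). The median of 4 tested neutrophil-attracting chemokines, 3 above 0 and 1 below 0 in both pools, was 1.17 in the control and 0.31 in the telmisartan pool, with 0.91 and 0.65 when 2 gate genes were required and 1.73 and 0.97 with 4. *Cxcl2* had 6870 and 5588 CPM against 3440 and 4200 (1.00 and 0.41), and *Cxcl3* 1159 and 224 CPM against 295 and 192 (1.97 and 0.22). *Ppbp*, for the platelet chemokine CXCL7, lay below 0 in both pools (13.2 and 2.13 CPM against 17.3 and 8.30, -0.39 and -1.96), and *Cxcl5* had no UMI in the gate cells. All of these chemokines signal through CXCR2 on neutrophils.

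Within the IL-1 family, 4 of 8 tested genes lay above 0 in both pools and 2 below, with medians of 0.63 and 0.09, the latter turning to -0.17 when the other cells were weighted to the depths of the gate cells. *Il1b* had 4894 and 4735 CPM against 2571 and 3277 (0.93 and 0.53). *Il1rn*, which encodes the antagonist of the IL-1 receptor, was higher as well, with 1510 and 1730 CPM against 741 and 1101 (1.03 and 0.65). The decoy receptor gene *Il1r2* had 226 and 567 CPM against 181 and 243 (0.33 and 1.22). *Il18*, for IL-18, had ratios of -0.93 (-1.70 to -0.26) and -0.46 (-1.25 to 0.23), and *Il1r1*, the signaling receptor, was hardly found, with 7 and 1 UMIs. The 10 inflammasome genes had medians of -0.30 and 0.12, without a shared direction.

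The TNF superfamily ligands had medians of 0.10 and 0.51 over 8 genes, of which *Tnf* and *Tnfsf15* were past 1 log2 unit in both pools. *Tnfsf9*, the ligand of 4-1BB, had 207 and 373 CPM against 96.1 and 196, so ligand and receptor genes were both higher in the gate cells. *Tnfsf15*, for TL1A, had 45 UMIs in 7.20% of control gate cells and 6 UMIs in the telmisartan pool (4.22 and 2.58). The 13 CC chemokines gave 12 tested genes, with medians of 0.24 and 0.12. Only *Ccl17* was past 1 in both pools (309 and 112 CPM against 112 and 55.2), and 1 cell held 31.1% and 54.3% of its gate cell UMIs, while *Ccl8* was lower past 1.

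Beside *Ereg* and *Areg*, the EGF receptor ligands were scarce. *Hbegf*, for heparin-binding EGF, was the only other ligand tested, with 27.0 and 28.8 CPM against 16.9 and 15.2, ratios of 0.68 (0.21 to 1.12) and 0.92 (0.30 to 1.48). *Tgfa* had 1 and 0 UMIs, *Egf* 4 and 0, and *Btc* and *Epgn* none in the gate cells. The receptor gene *Egfr* had 2 and 0 UMIs and *Erbb2* none, so both were at or near 0 at this depth. The sheddase gene *Adam17* stood at 165 and 160 CPM in gate cells and 166 and 163 in the others (-0.01, -0.19 to 0.16, and -0.03, -0.27 to 0.21). *Rhbdf2*, for the iRhom protein that carries ADAM17 to the surface, stood at 68.5 and 55.4 against 60.9 and 54.5 CPM.

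For IL-23 the partner subunit was hardly present. *Il12b*, which encodes p40, had 0 of 1664958 UMIs in the control gate cells and 8 in the telmisartan ones, 87.5% of them in 1 cell, beside 171 and 105 UMIs of *Il23a*. The list of IL-12 and IL-6 family cytokines had medians of 0.44 and -0.11 over 5 tested genes. *Lif*, an IL-6 family cytokine, had 76.3 and 67.1 CPM against 28.6 and 31.5 (1.41 and 1.09) and was its only gene past 1 in both pools. *Osm*, for oncostatin M, had 901 and 502 CPM against 664 and 544 (0.44 and -0.12).

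Few osteoclast genes accompanied *Dcstamp*. Over 9 tested osteoclast and fusion genes the medians were -0.44 and 0.32, and none was past 1 in both pools. The telmisartan median was -0.0104 with 2 gate genes, -0.0307 with 4, -0.13 with at least 500 UMIs and 0.00807 without each gene's highest gate cell, so its direction was not stable. *Ocstamp*, the companion of *Dcstamp* in fusion, had 6 and 12 UMIs in the gate cells, the resorption enzyme genes *Ctsk* and *Acp5* had 4 and 5 and 18 and 12, and *Calcr* and *Oscar* had none. *Atp6v0d2*, a proton pump subunit of fusing cells, had 10 and 9 UMIs. *Nfatc1*, the main osteoclast transcription factor, stood at 65.5 and 86.3 CPM against 62.3 and 69.3. *Cd9*, a tetraspanin linked to fusion, had 931 and 689 CPM against 564 and 519 (0.72 and 0.41).

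Genes that respond to cAMP and CREB had medians of 0.43 and 0.13 over 15 genes, the latter at -0.07 when each cell was scaled to its own depth and counted equally. *Ptgs2*, which encodes the prostaglandin-forming cyclooxygenase-2, had 1784 and 1404 CPM against 797 and 990 (1.16 and 0.50). *Nr4a3*, a nuclear receptor of the immediate response, had 189 and 373 CPM against 79.3 and 231 (1.25 and 0.69). *Crem* stood at 134 and 192 against 86.1 and 161 (0.64 and 0.25), and *Rgs2* at 527 and 336 against 614 and 486 (-0.22 and -0.53). The AP-1 and early growth response list had medians of 0.26 and 0.07, with *Jun* (330 and 132 CPM against 538 and 378) and *Atf3* (274 and 172 against 488 and 385) lower in both pools. Among MAPK phosphatases and sprouty genes, with medians of -0.09 and 0.06, *Dusp5* had 426 and 555 CPM against 192 and 384 (1.15 and 0.53). The 13 tested prostanoid and leukotriene genes were centred on 0 (-0.03 and 0.05).

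Hypoxia and glycolysis genes moved together by small amounts. Of 20 genes, 18 lay above 0 in both pools and 1 below, with medians of 0.34 and 0.14, and none was past 1 in both. The shares of all genes above 0 were 31.0% in the control and 38.5% in the telmisartan pool. *Hilpda* had 1327 and 972 CPM against 506 and 581 (1.39 and 0.74), *Slc2a1*, the glucose transporter gene, 378 and 314 against 273 and 276 (0.47 and 0.19), and *Vegfa* 850 and 706 against 552 and 703 (0.62 and 0.01). The angiogenic and matrix list had medians of 0.34 and 0.01, the latter at -0.03 with cells counted equally. Its genes *Spp1*, for osteopontin (6527 and 3087 CPM against 3225 and 2144), and *Mmp12*, for macrophage elastase (2371 and 1340 against 966 and 861), were higher in both pools. The plasminogen and coagulation genes had medians of 0.08 and 0.27. *Slc7a11*, the cystine carrier gene of the NRF2 list, had 283 and 248 CPM against 135 and 130 (1.07 and 0.94), while that list as a whole was at 0.00 and 0.04.

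Lists of resident-type and interferon-exposed macrophages were lower. Of 13 complement and *Folr2*-type genes, 12 lay below 0 in both pools, with medians of -1.28 and -0.68. Of all genes tested, 69.0% and 61.5% lay below 0 in the control and telmisartan pool. *C1qa* had 153 and 252 CPM in gate cells against 485 and 432 (-1.67 and -0.78), and *Selenop*, for selenoprotein P, 81.1 and 147 against 262 and 280 (-1.69 and -0.93). The exception was *Folr2*, the folate receptor gene, with 7.81 and 77.8 CPM against 41.9 and 57.8 (-2.43 and 0.43), where 1 cell held 45.2% of the telmisartan UMIs. *Apoe* had 380 and 1052 CPM against 1195 and 2523 (-1.65 and -1.26). The lipid-associated list that holds it was at -0.14 and -0.18, its control median turning to 0.01 under TMM scaling.

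Of 14 type I interferon genes, 13 lay below 0 in both pools, beside 69.0% and 61.5% of all genes in each. Past 1 in both were 4 of them. The medians of -1.50 and -0.91 shrank to -0.32 and -0.35 with 2 gate genes. With 4 they were -1.52 and 0.63, the latter on 7 cells. The mean ratio of *Iigp1* likewise went from -3.14 to -0.89 with 2 gate genes. *Isg15*, a ubiquitin-like protein gene, had 16.2 and 30.9 CPM against 35.8 and 71.0 (-1.14 and -1.20), and *Slfn4* 26.4 and 92.7 against 65.6 and 186 (-1.31 and -1.01). The nitric oxide and IFN-γ list had medians of -0.99 and -0.77 over 11 genes, 9 of them below 0 in both pools. *Cxcl9*, a T cell-attracting chemokine, had 463 and 222 CPM against 920 and 446 (-0.99 and -1.01). Monocyte genes had medians of -0.83 and -0.43. In that list *Plac8* (9.61 and 46.9 CPM against 59.9 and 141) and *Ly6c2* (30.6 and 75.7 against 70.7 and 172) were lower, *Ccr2* was near equal (534 and 507 against 608 and 502), and the matrix gene *Vcan* was higher (208 and 137 against 133 and 96.5).

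Other lists are given by their medians, beside -0.18 and -0.11 over all genes tested. The IL-4 induced genes lay above both, with 5 of 12 above 0 in both pools and 3 below. Medians were -0.23 and -0.23 for heat shock chaperones, 0.05 and -0.05 for the integrated stress response, 0.06 and 0.37 for IL-4 induced genes, -0.03 and -0.21 for growth factor receptors and lineage factors, -0.37 and -0.12 for checkpoint ligands, 0.08 and -0.03 for EGF receptors and shedding, and -0.28 and -0.09 for IL-10 and TGF-β. In the IL-10 and TGF-β list *Inhba*, which encodes the activin A subunit, had 1527 and 484 CPM against 399 and 320 (1.93 and 0.60), and *Il10* had 3 and 9 UMIs.

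The relation of MHC class II genes to the other cells depended on the pool and on the threshold. In the control pool their median ratio was -0.06 (0.09 under TMM scaling), with 3 of 7 genes above 0, and in the telmisartan pool 0.66, with 7 of 7. With 2 gate genes required, these medians were 0.31 and 0.46. With 4 they were -1.58 and 0.25, on 19 control and 7 telmisartan cells. The distance between the pools was larger at higher thresholds, but these sets are nested and the last is thin. *H2-Aa*, an MHC class II chain, stood at 3281 CPM in control gate cells and 3091 in the other cells, and at 4167 and 2133 in the telmisartan pool (0.09, 0.05 to 0.13, and 0.97, 0.92 to 1.01). *Cd74*, the invariant chain, stood at 5314 and 5554 CPM and at 6296 and 3983 (-0.06 and 0.66). Cell cycle lists had a like split, with medians of -0.48 and 0.08 for 15 S-phase genes and -0.59 and 0.13 for 12 G2/M genes. With the other cells weighted to the depths of the gate cells, however, the telmisartan medians were -0.33 and -0.37, and that of the G2/M genes was also below 0 with 4 gate genes (-0.45) and without each gene's highest gate cell (-0.17). It was 0.56 without the upper limit on genes per cell, 0.24 with 2 gate genes and 0.19 after Scrublet removal, so its direction was not stable.

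Gate cells were also set against the 140 control and 129 telmisartan *Lyz2*-high cells with at least 3 genes of the second set, the set that the rule keeps apart, 44 of which also had at least 3 gate genes. Of 5760 genes with at least 100 UMIs, the gate cells were at least 1 log2 unit higher in both pools for 35 (0.608%) and lower for 54 (0.938%), and again nothing is read from these shares. The medians of all genes were 0.01 and 0.04. Hypoxia genes were higher in the second set than in the gate cells, with median ratios of -0.26 and -0.43 for gate cells over the second set, as were NRF2 and heme genes (-0.77 and -0.89). Medians below 0 were also found for neutrophil-attracting chemokines (-0.74 and -0.82), NF-κB genes (-0.14 and -0.27) and the IL-1 family (-0.37 and -0.08). Those of cAMP and CREB genes were above 0 (0.16 and 0.10). *Hmox1*, which encodes heme oxygenase-1, had 189 and 278 CPM in gate cells against 901 and 1881 (-2.25 and -2.76), *Cxcl3* 1159 and 224 against 3033 and 1472, and *Slpi* 255 and 179 against 727 and 458. Type I interferon genes were also lower in the gate cells, with medians of -1.82 and -1.36 over 6 genes.

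Antigen presentation and cell cycle genes lay on the other side. All 7 MHC class II genes were tested, with medians of 1.06 and 1.01 and 3 past 1 in both pools, and *H2-Eb1* had 2315 and 2880 CPM in gate cells against 940 and 1310 (1.30 and 1.14). The 8 tested G2/M genes had medians of 1.73 and 1.31, with 6 past 1 in both pools, and the 8 S-phase genes 1.31 and 1.04, with 3. The G2/M list summed to 703 and 1094 CPM in gate cells and 288 and 467 in the second set. In the other *Lyz2*-high cells it summed to 949 and 964, so the second set was low. *Top2a*, for the topoisomerase of dividing cells, had 132 and 195 CPM against 26.6 and 47.5 (2.31 and 2.04). In the gate cells its UMIs lay in 20% of control and 26.4% of telmisartan cells, the highest of which held 23.3% and 13.1%. *Il1a* itself, a rule gene, stood higher in the second set, at 2260 and 1571 CPM.

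The study names its macrophage clusters by 3 genes each, chosen on these same samples, so their levels are no independent evidence. The genes of the H2I label (*H2-Eb1*, *H2-Ab1* and *Il1r2*) summed to 5986 and 7631 CPM in gate cells against 5638 and 4103 in the other cells. Those of the CFS label without *F3*, a rule gene (*Cxcl3* and *Slpi*), summed to 1413 and 403 against 381 and 278. Those of the CVL label summed to 438 and 312 against 277 and 243. These labels thus had higher sums in the gate cells of each pool. The others had lower sums, with 19.8 and 112 against 143 and 139 for CFF, 42.0 and 193 against 158 and 403 for RSP, and 493 and 231 against 1068 and 544 for CSI.

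Telmisartan was then set against control within the gate cells. Of 3668 genes with at least 100 UMIs there, 46 (1.25%) were at least 1 log2 unit higher in the telmisartan pool and 25 (0.682%) at least 1 lower. The median over these genes was 0.00 in gate cells and -0.03 in the other *Lyz2*-high cells, and 50.5% and 43.9% of them lay above 0. Since each group was 1 pool, an effect of the drug and a difference between the pools cannot be told apart.

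The 8 largest falls were those of *Cxcl3*, *Cav1*, *Inhba*, *Dst*, *Tlr4*, *Ccl17*, *Jun* and *Nrp2*. *Cxcl3* went from 1159 CPM in control to 224 in telmisartan gate cells, a log2 ratio of -2.37 (-2.58 to -2.17), against -0.62 in the other cells. *Inhba* went from 1527 to 484 CPM, -1.66 (-1.81 to -1.51) against -0.32. *Cav1*, for caveolin-1, went from 120 to 24.5 CPM, -2.29 (-2.98 to -1.67) against -0.18. Each fall was larger in the gate cells than in the other cells, but with 2 gate genes required they were only -1.02, -0.51 and -0.92. The others were *Dst*, for a cytoskeletal linker (112 to 36.2 CPM, -1.62), *Tlr4*, for the endotoxin receptor (112 to 38.4, -1.54), *Ccl17* (309 to 112, -1.47, but 1.13 with 4 gate genes), *Jun* (330 to 132, -1.32) and *Nrp2*, for neuropilin-2 (137 to 58.6, -1.22). In the other cells these were at -0.66, -0.46, -1.03, -0.51 and -0.28. With 2 gate genes required they were smaller in the gate cells, at -1.08, -0.58, -1.02, -0.75 and -0.62. With 4 gate genes *Dst* was at -0.36, while *Tlr4*, *Jun* and *Nrp2* were at -2.14, -1.97 and -1.51. The values with 4 gate genes rest on 19 control and 7 telmisartan cells.

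Among the rises, those of *Kdm6b* and *Dot1l* were as large in the other cells. *Kdm6b*, which encodes a histone demethylase, went from 120 to 296 CPM, 1.30 (1.04 to 1.57) against 1.34, and *Dot1l*, for a histone methyltransferase, from 60.1 to 142 CPM, 1.24 against 1.42. The remaining rises were larger in the gate cells. *Apoe* went from 380 to 1052 CPM, 1.47 (1.32 to 1.61) against 1.08. *Ifi27l2a*, an interferon-induced gene, went from 91.9 to 303, 1.72 against 1.20, but -0.44 with 4 gate genes, on 7 telmisartan cells. *Il1r2* rose from 226 to 567 CPM, 1.32 (1.13 to 1.52), and by 0.43 in the other cells, but with 2 gate genes required it was at 0.52. *B4galt5*, a galactosyltransferase gene, went from 51.1 to 149 CPM (1.55 against 0.76), *Mmp13*, for collagenase 3, from 40.8 to 141 (1.78 against 0.54, with 38.6% of its telmisartan UMIs in 1 cell, and 0.74 with 2 gate genes), and *Ccl12*, a monocyte chemokine, from 108 to 280, 1.38 (1.10 to 1.66), where the other cells were at -0.28.

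**Figure D3:**
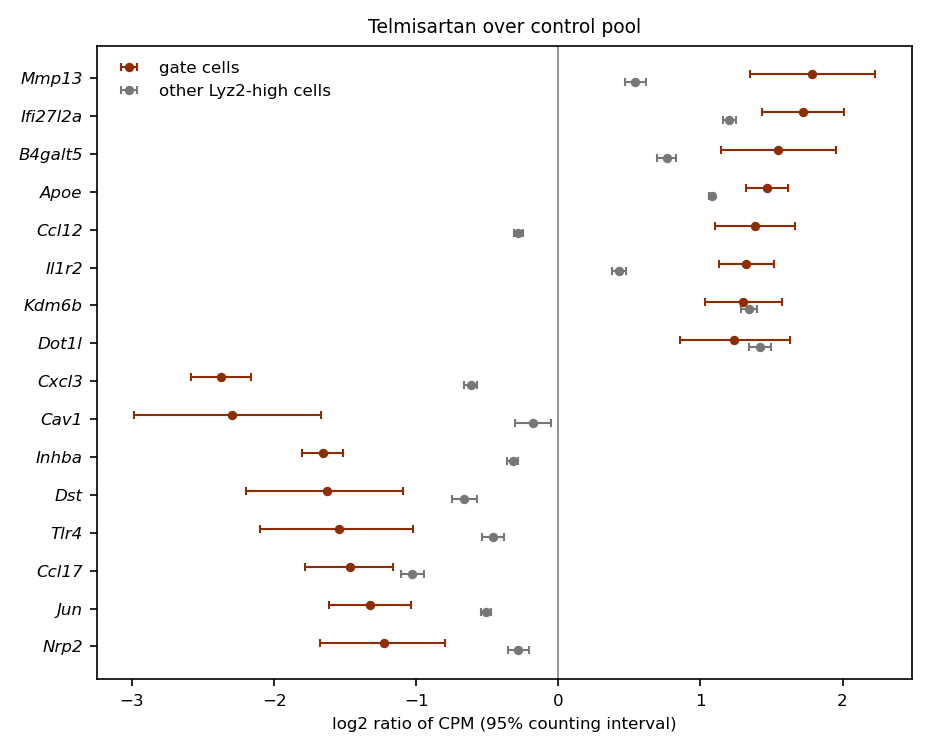
Log2 ratio of the level in the telmisartan to that in the control pool (horizontal axis, 0 = equal) for the 8 largest rises and 8 largest falls in gate cells, in gate cells and in the other *Lyz2*-high cells, with exact conditional binomial 95% intervals for counting error alone. The falls of *Cxcl3*, *Cav1* and *Inhba* are larger in gate cells, *Kdm6b* and *Dot1l* have overlapping intervals, and *Ccl12* has opposite signs.

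By lists, the sign of MHC class II genes depended on the threshold of the gate. All 6 tested genes were higher in the telmisartan gate cells, with a median of 0.26, whereas the median in the other cells was -0.51. With 2 gate genes required the median in gate cells was -0.31, the sign of the other cells. With 4 it was 1.62, on 19 control and 7 telmisartan cells. *H2-Aa* rose from 3281 to 4167 CPM in gate cells (0.34, 0.29 to 0.40) and went from 3091 to 2133 in the others. The 6 tested G2/M genes had a median of 0.81 in gate cells and 0.11 in the others, with 3 past 1. *Mki67* had 102 and 211 CPM (1.05, 0.74 to 1.35), 18.8% and 13.1% of them in 1 cell. NF-κB genes had a median of 0.32, with 12 of 14 above 0 (50.5% of all genes tested), and 0.59 in the other cells. The 3 tested neutrophil-attracting chemokines had a median of -0.30 against 0.29, with *Cxcl3* past 1 lower and *Cxcl1* past 1 higher (816 to 1791 CPM, 1.13 against 1.21). Complement and *Folr2*-type genes had 0.38 against -0.02, hypoxia genes -0.12 against 0.10, and angiogenic and matrix genes -0.34 against 0.04, with *Spp1* at -1.08 in gate cells and -0.59 in the others.

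The gate genes themselves differed between the pools, which limits what a comparison of the gate cells can show. *Ereg* was at -1.56, *Il1a* at -0.81, *Dcstamp* at -0.67, *Areg* at -0.18 and *Il23a* at 0.12, and the combinations of gate genes had other shares in each pool. Within the cells that carried *Areg*, *Il1a* and *Dcstamp* and no other gate gene (61 and 44 cells), a comparison chosen after the values had been seen, *Cxcl3* went from 732 to 191 CPM (-1.94), *Inhba* from 1489 to 358 (-2.06) and *Cav1* from 72 to 20.5 (-1.81). In the same cells *Il1r2* went from 279 to 822 CPM (1.56), *Ccl12* from 124 to 310 (1.32) and *H2-Aa* from 4540 to 5789 (0.35). All 6 kept the direction they had over all gate cells. These cells are part of the gate cells, and the genes were picked with their values known. Keeping the direction is thus no independent support. Other ratios shrank there, among them *Mmp13* (1.16), *Apoe* (1.03), *Jun* (-0.81) and *C1qb* (0.14, against 0.54 over all gate cells), and others grew, among them *Dst* (-2.32), *Ccl17* (-1.74), *Nrp2* (-1.59) and *Spp1* (-1.35).

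The receptors that telmisartan acts on were at or near 0. In the gate cells *Agtr1a*, for the main angiotensin II receptor, had 0 and 1 UMIs, *Agtr1b* and *Agtr2* had none, *Ace* had 2 and 1, and *Pparg*, for the nuclear receptor that the drug also activates in part, had 2 and 1. In the other cells *Pparg* stood at 3.29 and 3.84 CPM, ratios of -1.46 (-4.52 to 0.43) and -1.85 (-7.16 to 0.66). *Pparg* is thus among the genes past 1 lower in both pools, on 3 UMIs and with intervals that reach above 0.

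On the mouse genome (build GRCm38, GENCODE M21), *Ereg* (chr5:91074622-91093646) and *Areg* (chr5:91139599-91148432) are neighbors on the plus strand of chromosome 5. *Epgn* (chr5:91027464-91035215) lies before them and *Btc* (chr5:91357261-91402994) after them, and neither had a UMI in the gate cells. The chemokine genes *Cxcl3* (chr5:90786103-90789600), *Cxcl1* (chr5:90891241-90893115) and *Cxcl2* (chr5:90903871-90905938) lie before *Epgn* on the same chromosome. *Il1a* (chr2:129299610-129309972) and *Il1b* (chr2:129364570-129371139) are both on the minus strand of chromosome 2. *Il23a* lies on chromosome 10 (chr10:128296139-128298752) and *Dcstamp* on chromosome 15 (chr15:39745930-39760938).

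Promoters are shown for the gate genes *Areg* and *Il1a*, and for *Cxcl1*, a chemokine gene outside the rule that was higher in the gate cells of both pools. The 250 bases before the start of each gene are from RefSeq (build GRCm38.p6), given 5′ to 3′ on the strand of the gene, and *Ereg*, *Il23a* and *Dcstamp* had no entry in the table used. Searched on both strands were the CREB motif TGACGTCA, the AP-1 motif TGANTCA and the NF-κB motif, and capitals mark their matches. *Areg* (chr5:91139349-91139598, plus strand) has TGACGTCA at -61, *Il1a* (chr2:129309973-129310222, minus strand) has TGACTCA at -12, counted from the first base of the match to the start, and *Cxcl1* (chr5:90890995-90891244, plus strand) has 2 overlapping NF-κB matches from -71. The promoters of *Il1b*, *Tnf* and *Tnfrsf9*, also higher in the gate cells of both pools, were looked at as well and held none of these motifs, and that of *Hilpda* held an NF-κB match at -131. For *Tnfrsf9* the stretch used (chr4:150919905-150920154) lies inside the gene as annotated in GENCODE M21, which starts at 150914562.
Areg: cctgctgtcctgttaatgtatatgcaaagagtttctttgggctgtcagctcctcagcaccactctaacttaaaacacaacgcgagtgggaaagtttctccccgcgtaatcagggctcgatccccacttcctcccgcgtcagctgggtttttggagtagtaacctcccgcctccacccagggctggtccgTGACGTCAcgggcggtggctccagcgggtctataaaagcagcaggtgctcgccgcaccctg
Il1a: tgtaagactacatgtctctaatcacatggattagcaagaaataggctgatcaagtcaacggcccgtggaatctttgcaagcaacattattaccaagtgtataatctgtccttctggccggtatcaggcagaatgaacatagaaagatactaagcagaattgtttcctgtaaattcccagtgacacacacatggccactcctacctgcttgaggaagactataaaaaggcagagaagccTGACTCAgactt
Cxcl1: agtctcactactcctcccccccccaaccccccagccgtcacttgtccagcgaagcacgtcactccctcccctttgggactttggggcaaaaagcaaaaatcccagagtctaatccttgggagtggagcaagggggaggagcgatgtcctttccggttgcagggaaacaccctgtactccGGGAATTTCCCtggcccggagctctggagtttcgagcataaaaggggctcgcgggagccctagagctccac
Over 27025 promoters of the same length, 1 per gene, the CREB motif is in 1.62%, the AP-1 motif in 6.87% and the NF-κB motif in 7.01%. Of the 15 highest genes 13 had an entry, of which 0 held the CREB motif, 0 the AP-1 motif and 3 the NF-κB motif. A match is a run of letters and does not show that a factor binds there.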

How the data were processed

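The authors ran the BD Rhapsody WTA Analysis Pipeline 1.11 (GRCm38, GENCODE M19). The deposited counts are UMIs, not normalized, and a further table counts Sample Tag reads. Kept were cells with at least 10 tag reads, at least 75% of them on tag 1 (control) or tag 2 (telmisartan), 150 to 5000 genes and at most 20% mitochondrial UMIs. No doublets were removed within a tag. Members and gene lists were chosen with earlier results of these data known.

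UMIs were summed per set of cells and pool in Python 3.11.15 (numpy 2.4.6, scipy 1.17.1, pandas 2.3.3, matplotlib 3.10.9), and ratios were tested on simulated data. Named are the rule genes, list members, markers, the 15 highest and 10 lowest mean ratios to other *Lyz2*-high cells among genes past 1 log2 unit in both pools with at least 200 UMIs, and the 8 largest rises and falls with at least 200 UMIs in gate cells and an interval on 1 side of 0.

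Alternatives were a tag share of 90%, 500 genes, no upper gene limit, 10% mitochondrial UMIs, Scrublet (scanpy 1.11.5), 2 or 4 gate genes, thinning to 3000 UMIs, other scalings (without mitochondrial and ribosomal protein genes, TMM from edgeR 4.0.16 under R 4.3.3, cells counted equally, depth weighting) and other UMI minimums. The paper's processed object and stains were not used here.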

Additional observations from a re-analysis of the deposited data

Results flagged for a closer look

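For 10 genes with at least 200 UMIs in the gate cells and a log2 ratio of telmisartan to control of at least 0.5 in size there, this ratio had its interval on one side of 0 in gate cells and on the other side in the other *Lyz2*-high cells. Higher with telmisartan in gate cells and lower in the others were *Ccl12* (1.38 against -0.28), *C1qa* (0.72 against -0.17), *Ly86* (0.67 against -0.09), *Prcp* (0.57 against -0.07), *C1qb* (0.54 against -0.02) and *Fgl2* (0.53 against -0.42). Lower in gate cells and higher in the others were *Thbd* (-1.21 against 0.18), *Ccl3* (-0.63 against 0.12), *Sod2* (-0.53 against 0.15) and *Ubald2* (-0.52 against 0.07). They were picked for this contrast among all genes at that depth, each group is 1 pool, and the difference between the kinds of cells was not tested.

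Outside the limits on genes per cell, 3 control and 2 telmisartan cells had more than 5000 genes and met every other part of the rule, of 74 and 16 tagged cells above that limit with at most 20% mitochondrial UMIs. Above, they enter only the value given without the upper limit on genes per cell, and whether they are doublets was not tested.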

How the results depend on the processing

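No paired analysis was possible because each group is 1 pool and the values come from no test. Gate cells made up 14.4% of control and 11.3% of telmisartan cells with 2 gate genes required, 0.374% and 0.145% with 4, and 1.19% and 0.951% after thinning, changes that the thresholds and the depth build in. Between gate cells and other *Lyz2*-high cells, genes higher and lower in both pools numbered 20 and 56 with 2 gate genes, 149 and 123 with 4 (26 cells), and 14 and 85 with at least 500 UMIs, while 254 genes were higher without a UMI minimum. Between the pools, genes higher with telmisartan, against 46 (25 lower), numbered 72 with 2 gate genes (23 lower), 16 with 4 (32 lower), 11 after thinning (14 lower), 1017 without a minimum (735 lower) and 4 with at least 500 UMIs (9 lower). These settings change the cells or how many genes are tested. Between the pools, only 19 of the higher and 4 of the lower genes with 2 gate genes were among those of the main setting. With 4 gate genes these were 2 and 3. TMM factors gave 53 higher and 131 lower genes in gate cells, against 36 and 187.

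Leaving out each gene's highest gate cell in either pool, added after the data had been seen, gave 12 higher and 463 lower genes against other cells. It lowers the gate cells alone in that comparison. Between the pools it gave 41 higher and 37 lower genes, against 46 and 25. In cells with *Areg*, *Il1a* and *Dcstamp* only, likewise added after the data had been seen, 23 genes were higher and 27 lower with telmisartan. The excess of higher genes between the pools was thus not kept with 4 gate genes, thinning, at least 500 UMIs or this combination. Without each gene's highest gate cell the excess was smaller.

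Signs changed in several values. The MHC class II median was 0.31 in the control pool with 2 gate genes and 0.09 under TMM scaling (main -0.06), and -0.31 between the pools with 2 gate genes (main 0.26). The telmisartan median of G2/M genes (main 0.13) was -0.45 with 4 gate genes, -0.37 with depth weighting and -0.17 without each gene's highest cell. Other lists with medians near 0 changed sign under a scaling. In the control pool these were under TMM MAPK (0.0652), prostanoid (0.12), NRF2 (0.15), lipid-associated (0.0143) and growth factor receptor genes (0.13), and with cells counted equally prostanoid (0.0149), integrated stress (-0.0153) and IL-4 genes (-0.0218). In the telmisartan pool they were under TMM EGF receptor and shedding (0.0742), IL-10 and TGF-β (0.0054) and integrated stress genes (0.0529), with cells counted equally cAMP (-0.0705) and angiogenic genes (-0.0279), and with depth weighting IL-1 family (-0.17), integrated stress (0.0208) and S-phase genes (-0.33). The telmisartan median of osteoclast and fusion genes was -0.0104 with 2 gate genes, -0.0307 with 4 and -0.13 with at least 500 UMIs, that of type I interferon genes 0.63 with 4 gate genes, and the ratios between pools of *Ifi27l2a* and *Ccl17* were -0.44 and 1.13 there, on 7 telmisartan cells. *Car4* was at -0.44 without its highest cells. The cause was not tested except for *Car4*, where 1 cell held most UMIs.

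Scrublet marked 0 cells by its own threshold. The 942 cells with the highest scores (9.51%, the share that tag multiplets predict) included 13 control (10.4%) and 9 telmisartan (10.3%) gate cells, beside 11.3% and 9.15% of the other *Lyz2*-high cells. Of 354 mean ratios of 25 genes between gate and other cells, 309 stayed between the averaged interval bounds of both pools. Those bounds are not an interval of the mean and are lenient. Of 240 values of 16 genes between the pools, 187 stayed within the counting interval. Several settings reuse the same cells, so these counts do not measure independent repeats. Depth limits genes with few UMIs most, and a gene at 0 in 212 cells may still be expressed.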
